A study of Mus musculus with 6 samples.

Results

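The 44 genes described here act in mitotic entry, at the kinetochore, in the spindle assembly checkpoint, on the spindle and in chromosome condensation and separation. They were taken by gene symbol from the 24080 genes of the deposited table, and all 44 were found there. RNA was sequenced from mouse endothelial cells (ECs) that either carry or lack vascular endothelial cadherin (VEC), the adhesion molecule of endothelial junctions that is encoded by *Cdh5*. The VEC-positive cells were made by retroviral transfer of wild-type *VEC* into the VEC-null cells. The VEC-null cells are ECs obtained from mouse embryonic stem cells in which both copies of the VEC gene carry a null mutation, so the same null alleles underlie both groups and the groups differ in the transferred gene. Each group held 3 libraries of total RNA, and the study calls them biological replicates, but the labels do not say whether separate cultures were used, so p-values measure only the spread between these libraries. The cells are 1 line and its reconstituted derivative, and an effect of VEC and other differences that arose between them cannot be told apart.

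Cells enter mitosis when the kinase Cdk1, bound to a cyclin, is switched on by phosphatases of the Cdc25 family. Kinetochores then form on centromeric chromatin and attach to spindle microtubules, and unattached kinetochores delay anaphase through the checkpoint proteins. Once all are attached, the anaphase promoting complex (APC/C) with Cdc20 destroys securin and cyclin B, separase opens cohesin and the sister chromatids part. Most of these genes are transcribed late in the cycle, so their RNA is a common measure of how much of a culture is dividing. In RNA from bulk cells, fewer dividing cells and less RNA per cell cannot be told apart.

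Libraries held 9598590, 12233975 and 14136376 reads in genes under the VEC-positive label and 6036155, 11670273 and 10587041 under the VEC-null label. The level of *Cdh5* ran against the labels, at 794.3, 739.4 and 749.7 normalized counts (reads scaled by the authors to a common depth) in libraries labelled VEC-positive, against 1334, 1439 and 1689 in those labelled VEC-null (log2 fold change -0.96, standard error 0.098, adjusted p = 0.000182 by limma). Which exons these reads came from cannot be seen in gene totals. Other endothelial genes ran the opposite way. *Cldn5*, which encodes the tight junction protein claudin-5 and is known to be induced by VEC, was at 429, 512 and 434 in libraries labelled VEC-positive, against 9.18, 5.51 and 4.43 in those labelled VEC-null (log2 fold change 6.01, adjusted p = 2.14e-06). *Ptprb*, which encodes the phosphatase VE-PTP, and *Vwf*, which encodes von Willebrand factor, both named here after their values were seen, were also higher under the VEC-positive label (log2 fold changes 1.88 and 2.12, adjusted p = 3.08e-06 and 8.82e-07). Every direction given here follows the labels, so that VEC-positive and VEC-null libraries are those labelled so. Transcripts of the mitochondrial genome took 17.97% to 24.18% of reads under the VEC-positive label and 9.62% to 14.9% under the VEC-null label. VEC-null 3 stood apart from its replicates, since a chi-square test of its reads against VEC-null 1 and VEC-null 2 averaged 49.0 and 49.8 over genes, where those 2 libraries differed by 6.53 and pairs under the VEC-positive label by 11.7 to 17.7. All 10 endothelial markers were measured, and they summed to 65573 to 67450 under the VEC-positive label and 46204 to 48934 under the VEC-null label, with 7 higher, *Cdh5* lower and the other 2 not past the threshold. Markers of mural cells and fibroblasts (10 of 12 in the table) summed to 149 to 214 under the VEC-positive label and 90.4 to 233 under the VEC-null label. Those of blood cells (5 of 8) summed to 33.1 to 48.7 under the VEC-positive label and 32.1 to 47.0 under the VEC-null label, and those of pluripotent cells (4 of 7) to 0.974 to 13.7 under the VEC-positive label and 3.55 to 10.7 under the VEC-null label. Among them *Tagln*, *Cnn1*, *Des*, *Rgs5*, *Dcn*, *Ptprc*, *Cd14*, *Gata1*, *Pou5f1*, *Tdgf1* and *Esrrb* stayed under 10 normalized counts in every library. These were 5 of the 10 mural and fibroblast markers, 3 of the 5 blood markers and 3 of the 4 pluripotent markers. The remaining markers of these lists reached 10 in at least 1 library. Of the 3 lists 4, 2 and 0 markers were tested, and 0 were called lower or higher. The part of these library features in the results was not tested.

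The promoters of such genes are known to share 2 kinds of element. One is the cell cycle genes homology region, TTTGAA or TTTAAA, where the MuvB complex binds with B-Myb and FoxM1 or with repressors of the DREAM complex. The other is the CCAAT box, bound by NF-Y, often in several copies. Promoter sequences came from RefSeq on GRCm38.p6, and 37 of the 44 members had an entry there. *Ccna2*, *Cdc25c*, *Foxm1*, *Aurkb*, *Incenp*, *Tpx2* and *Smc4* had none. The 150 bases before the start are shown for 10 members, 5′ to 3′ on the strand of the gene, with matches to the homology region and to CCAAT in capitals (TTCAAA and ATTGG are the same letters read on the other strand). *Ccnb1*, *Cdk1* and *Plk1* (mitotic entry), *Cdc20* and *Ube2c* (APC/C partners), *Cenpa* (kinetochore), and *Top2a* and *Mki67* (mitotic chromosome) are shown as members with a homology region match. They are a selection, and other members with such a match before the start are not shown. Left out were *Ccnb2* (mitotic entry), *Cenpf* (kinetochore), and *Smc2*, *Ncapd2* and *Ncapg* (chromosome condensation). *Birc5* and *Prc1*, of other functions, were left out as well. *Bub3* and *Espl1* are shown as the members with the smallest differences.
*Ccnb1* (chr13:100786487-100786636, minus strand, GRCm38.p6): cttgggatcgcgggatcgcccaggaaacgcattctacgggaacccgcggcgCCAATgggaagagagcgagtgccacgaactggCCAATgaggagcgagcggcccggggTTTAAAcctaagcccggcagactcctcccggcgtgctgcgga
*Cdk1* (chr10:69352913-69353062, minus strand, GRCm38.p6): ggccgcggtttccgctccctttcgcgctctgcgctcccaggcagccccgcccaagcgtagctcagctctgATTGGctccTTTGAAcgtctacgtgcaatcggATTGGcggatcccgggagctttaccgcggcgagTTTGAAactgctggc
*Plk1* (chr7:122159285-122159434, plus strand, GRCm38.p6): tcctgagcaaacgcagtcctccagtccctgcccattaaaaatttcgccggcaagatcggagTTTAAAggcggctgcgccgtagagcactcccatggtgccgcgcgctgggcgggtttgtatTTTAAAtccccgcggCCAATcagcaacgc
*Cdc20* (chr4:118437344-118437493, minus strand, GRCm38.p6): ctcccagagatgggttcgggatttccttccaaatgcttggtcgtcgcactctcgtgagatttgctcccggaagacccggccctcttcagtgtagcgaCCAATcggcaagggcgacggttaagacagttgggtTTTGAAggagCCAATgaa
*Cenpa* (chr5:30666736-30666885, plus strand, GRCm38.p6): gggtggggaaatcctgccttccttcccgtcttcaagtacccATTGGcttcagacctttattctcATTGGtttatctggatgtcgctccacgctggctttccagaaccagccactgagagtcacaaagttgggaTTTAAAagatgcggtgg
*Ube2c* (chr2:164769779-164769928, plus strand, GRCm38.p6): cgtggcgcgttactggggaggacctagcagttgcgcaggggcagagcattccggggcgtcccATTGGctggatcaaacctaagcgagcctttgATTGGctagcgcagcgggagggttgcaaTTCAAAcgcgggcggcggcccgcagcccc
*Top2a* (chr11:99024190-99024339, minus strand, GRCm38.p6): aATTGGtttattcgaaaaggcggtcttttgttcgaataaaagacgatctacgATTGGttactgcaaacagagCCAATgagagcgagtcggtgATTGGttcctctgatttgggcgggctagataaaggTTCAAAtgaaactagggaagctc
*Mki67* (chr7:135716380-135716529, minus strand, GRCm38.p6): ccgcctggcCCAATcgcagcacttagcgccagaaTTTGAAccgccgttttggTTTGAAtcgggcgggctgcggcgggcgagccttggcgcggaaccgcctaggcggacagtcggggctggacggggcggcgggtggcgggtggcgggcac
*Bub3* (chr7:131560220-131560369, plus strand, GRCm38.p6): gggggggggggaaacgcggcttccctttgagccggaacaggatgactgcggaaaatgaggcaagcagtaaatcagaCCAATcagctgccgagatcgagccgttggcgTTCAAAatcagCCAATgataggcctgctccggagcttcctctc
*Espl1* (chr15:102296143-102296292, plus strand, GRCm38.p6): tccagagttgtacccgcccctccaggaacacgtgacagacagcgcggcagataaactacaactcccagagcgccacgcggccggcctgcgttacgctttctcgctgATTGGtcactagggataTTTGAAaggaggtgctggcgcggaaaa

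Positions are those of the first base of a match as printed, with -1 for the base just before the start. In the *Ccnb1* promoter the CCAAT matches began 99 and 67 bases before the start and the homology region 42 bases before it, so the boxes lay upstream of the homology region. *Cdc20* had CCAAT at -53 and -8 with the homology region between them at -18, and *Top2a* had 6 CCAAT matches in the 250 bases before the start. *Bub3* and *Espl1* carried both kinds of match as well. For *Bub3* the RefSeq table lists 2 starts, and the sequence is that of the first.

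Over the 250 bases before the start, on both strands, 17 of the 37 members (45.9%) held a homology region match. The share was 20.5% of the 9463 tested genes with a promoter and 25.2% of all 32851 promoters in the table. A member or tested gene counted as holding a match if any of its promoters did. The shares of all promoters count each promoter by itself, so they are in another unit. CCAAT was found in 26 members (70.3%), against 40.9% of tested genes and 33.8% of all promoters, and both together in 16 (43.2%), against 8.0% and 8.8%. At least 2 CCAAT matches were found in 18 members (48.6%), against 15.8% of tested genes. Matches were counted wherever they began, so CCAAT and ATTGG that share letters count as 2. TTTAAA, which reads the same on both strands, counts as 1. For E2F, TTTGGCGC or TTTCCCGC was found in 1 member (*Ncapd2*, 2.7%), against 3.0% of tested genes and 1.3% of all promoters. Only exact matches to these letters were counted, so E2F elements of other letters would be missed. These shares describe letters in a window and were not tested, and a match is not a binding site. Members with and without a homology region match had like median log2 fold changes, -1.15 and -1.14. *Mybl2*, *Nuf2*, *Mad2l1*, *Nusap1*, *Ncaph* and *Pttg1* had neither kind of match between 250 bases before and 50 bases after the start. In this window, which was added after the data were seen, several members had their only homology region match in the last 50 bases, among them *Cdca3*, *Aurka*, *Cdca8*, *Cenpe*, *Knl1*, *Ttk* and *Hmmr*.

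**Figure D1:**
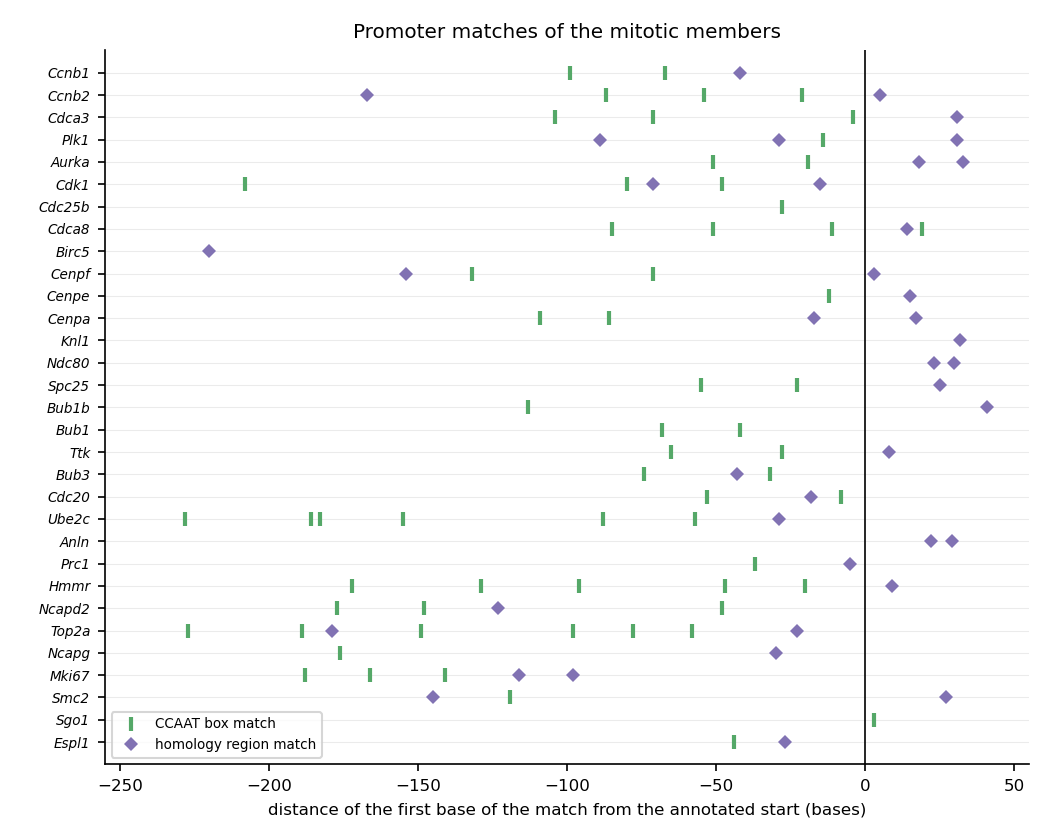
Matches to the homology region (diamonds) and to CCAAT (bars) in the first RefSeq promoter of the 31 members with at least 1 such match, by distance in bases from the annotated start (0), from 250 bases before to 50 after. Genes run down the page by function, and CCAAT matches of *Ccnb1*, *Ccnb2*, *Cdca3*, *Spc25* and *Hmmr* sit upstream of the homology region nearest the start.

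Nearly all of these mitotic genes had lower RNA levels under the VEC-positive label. Of the 44 members, all of which passed the filter on low values (a normalized count of 10 reached in 3 or more libraries), 42 were lower under the VEC-positive label at an adjusted p under 0.05 (limma, Benjamini-Hochberg over 14032 genes) and 0 were higher. Not 1 member had a positive log2 fold change in limma, edgeR or DESeq2, and edgeR and DESeq2 each called 43 members lower. Over all genes tested limma called 16.4% lower and 20.9% higher. Of the same 14032 genes, edgeR called 2506 lower and DESeq2 2301. At least 2-fold lower and called were 30 members (68.2%), against 6.99% of all genes. The libraries of the groups did not overlap for 41 members (93.2%), against 22.8% of all genes. The median log2 fold change of the members was -1.09, where the median of all genes was -0.012, and the median member stood at 46.5% of its VEC-null mean. Log2 fold changes ran between -1.90 (*Ccnb1*) and -0.29 (*Espl1*). Across the 44 genes, which share the same 6 libraries and are not independent, the Pearson correlation of log2 fold change with log2 mean level was 0.02. *Incenp* and *Espl1* did not pass the test, and with *Pttg1* they were the 3 members whose groups overlapped. With libraries scaled to equal totals the median of all genes moved to -0.32, and the members' median to -1.40, so the members lay 1.08 below the median of all genes under that scaling and 1.07 below it as deposited.

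Summed over the members, normalized counts were 27301, 27339 and 25116 under the VEC-positive label and 67737, 54704 and 53914 under the VEC-null label. As a share of reads outside the mitochondrial genome, the members took 0.297%, 0.303% and 0.284% under the VEC-positive label and 0.811%, 0.673% and 0.675% under the VEC-null label. *Mki67* alone made up a large part of these sums, and without it they were 21185, 21222 and 19565 under the VEC-positive label, against 52015, 43052 and 43084 under the VEC-null label. The groups were therefore apart on each of these scales. Within the groups, VEC-null 1 was the highest of the 6 libraries for 37 members and VEC-positive 3 the lowest for 30. Among the VEC-null libraries the lowest was VEC-null 3 for 20 members and VEC-null 2 for 24. Per kilobase of exon, the members ran from *Cdc25c*, with a mean of 5.04 normalized counts under the VEC-positive label and 17.8 under the VEC-null label, to *Mki67*, with 589 under the VEC-positive label and 1266 under the VEC-null label.

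**Figure D2:**
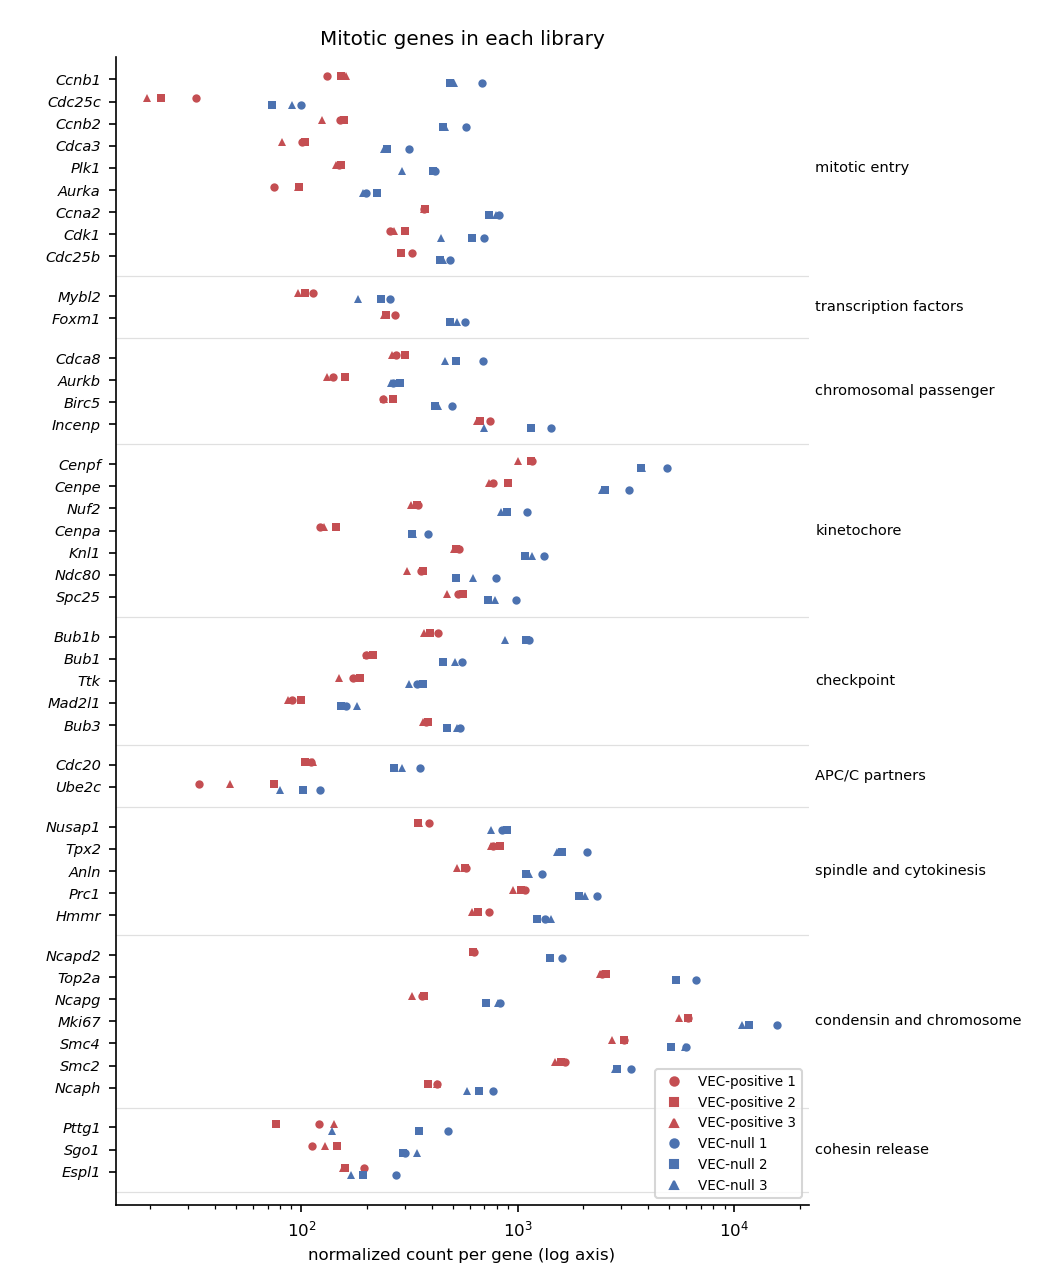
Normalized count (log axis) of each of the 44 members in each library, with the 3 libraries labelled VEC-positive in red above the 3 labelled VEC-null in blue, and genes grouped by function. Red and blue points are apart for 41 members and overlap for *Incenp*, *Pttg1* and *Espl1*, where VEC-null 3 (blue triangle) lies near the red points.

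**Figure D3:**
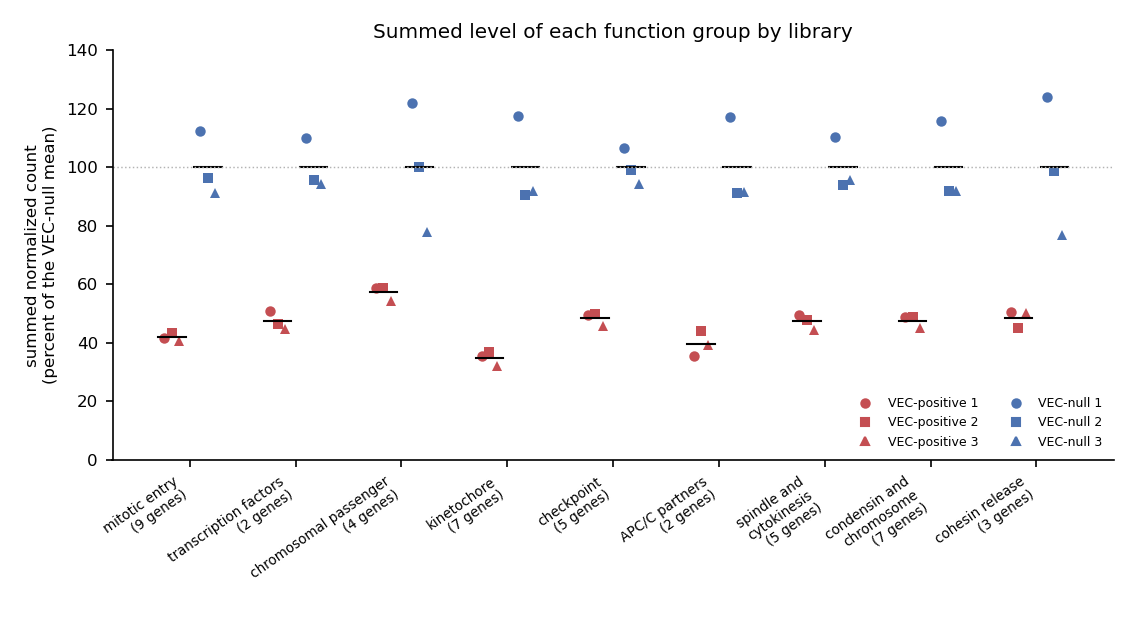
Summed normalized count of each function group in each library, in percent of the mean of the 3 libraries labelled VEC-null, with VEC-positive on the left of each pair and black bars at the means. VEC-null 1 is the highest library in all 9 groups, and no VEC-positive library reaches the lowest VEC-null library in any group.

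Genes of mitotic entry were lower in 9 of 9 cases, 8 of them at least 2-fold, with a median log2 fold change of -1.30. *Ccnb1* (ENSMUSG00000041431, chromosome 13 of mm10 between 100778650 and 100786570) encodes cyclin B1, the partner of Cdk1 at entry into mitosis. It was at 131, 153 and 161 normalized counts under the VEC-positive label, against 684, 487 and 507 under the VEC-null label. Every library labelled VEC-positive was below every library labelled VEC-null, VEC-null 1 was the highest, and the difference came to a log2 fold change of -1.90 ± 0.152 (adjusted p = 5.47e-05), where the ± gives the standard error, as it does for the other log2 fold changes. *Ccnb2*, the second B-type cyclin, was at 150.5, 157 and 125 in VEC-positive libraries, against 575, 449 and 458 in VEC-null libraries, with a log2 fold change of -1.77 ± 0.138 (adjusted p = 4.84e-05). For *Ccna2*, cyclin A2, which acts from S phase into mitosis, the counts were 369, 374 and 369 in VEC-positive libraries, against 817, 734 and 794 in VEC-null libraries, with a log2 fold change of -1.07 ± 0.0783 (adjusted p = 3.55e-05). The 3 cyclin genes were thus apart between the groups in every library, and the B-type cyclins had 95% confidence intervals (-2.25 to -1.55 and -2.09 to -1.45) below that of *Ccna2* (-1.25 to -0.89).

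*Cdk1*, the kinase itself, was at 255, 300.03 and 268 under the VEC-positive label and 695, 611 and 443 under the VEC-null label. VEC-null 3 was the lowest of its group at 67.9% of the mean of the other 2, and still above every VEC-positive library. The log2 fold change was -1.06 ± 0.164 (adjusted p = 0.0015). Of the phosphatases that take the inhibitory phosphates off Cdk1, *Cdc25c* was at 32.7, 22.4 and 19.4 in VEC-positive libraries, against 99.5, 73.2 and 90.4 in VEC-null libraries, and *Cdc25b* at 323, 288 and 288 in VEC-positive libraries, against 484, 437 and 449.5 in VEC-null libraries. The difference of *Cdc25c* was among the largest of the members (log2 fold change -1.80, adjusted p = 0.000871) and that of *Cdc25b* among the smallest (log2 fold change -0.61, adjusted p = 0.00141), and their confidence intervals did not overlap (-2.38 to -1.23 and -0.82 to -0.39). *Cdc25c* had the lowest counts of the members, and 12.7% of its exon bases are shared with the gene model *Gm3550* on the opposite strand. *Gm3550* was at higher levels, 519, 388 and 612 in VEC-positive libraries, against 956, 1159 and 525 in VEC-null libraries (log2 fold change -0.75, adjusted p = 0.0763), and how many reads of *Cdc25c* it shares was not tested.

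*Plk1*, a kinase that acts on Cdc25 and in centrosome maturation, was at 149, 152 and 144 in VEC-positive libraries, against 413, 406 and 293 in VEC-null libraries, with a log2 fold change of -1.29 ± 0.146 (adjusted p = 0.000303). Its VEC-null 3 library was also low for the group, at 71.5% of the mean of the other 2. *Aurka*, the centrosomal kinase that activates Plk1, was at 74.6, 97.4 and 96.0 in VEC-positive libraries, against 199, 223 and 193 in VEC-null libraries, with a log2 fold change of -1.20 ± 0.148 (adjusted p = 0.000487). *Cdca3*, part of a ubiquitin ligase that removes the Cdk1 inhibitor Wee1, was at 100.3, 104 and 81.5 in VEC-positive libraries, against 315, 247 and 240.3 in VEC-null libraries, with a log2 fold change of -1.48 ± 0.156 (adjusted p = 0.000218). The values of the 3 VEC-positive libraries lay close together for *Plk1* and were more spread for *Aurka* and *Cdca3*.

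Both transcription factors that drive genes of this phase were lower. *Foxm1* was at 271, 246 and 241 in VEC-positive libraries, against 571, 487 and 526 in VEC-null libraries, with a log2 fold change of -1.06 ± 0.0978 (adjusted p = 0.000108). *Mybl2*, which encodes B-Myb, was at 113, 104 and 96.0 in VEC-positive libraries, against 257, 233 and 184 in VEC-null libraries, with a log2 fold change of -1.09 ± 0.154 (adjusted p = 0.001). Their differences were of like size, and the confidence interval of each (-1.28 to -0.83 and -1.44 to -0.73) held the estimate of the other.

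The chromosomal passenger complex corrects faulty attachments and is built of the kinase Aurkb, the scaffold Incenp and the targeting subunits survivin and borealin. Of its 4 genes 3 were lower and none was called at 2-fold, with a median log2 fold change of -0.88. *Aurkb* was at 139.97, 159.8 and 131 under the VEC-positive label and 266, 285 and 259.8 under the VEC-null label, with a log2 fold change of -0.91 ± 0.116 (adjusted p = 0.000565). *Birc5*, which encodes survivin, was at 238, 264 and 241 in VEC-positive libraries, against 497, 413 and 426 in VEC-null libraries (log2 fold change -0.84, adjusted p = 0.00051), and *Cdca8*, which encodes borealin, at 274, 302 and 262 in VEC-positive libraries, against 693, 519 and 463 in VEC-null libraries (log2 fold change -0.98, adjusted p = 0.00151). All 3 were free of overlap between the groups. *Incenp* (ENSMUSG00000024660, chromosome 19 of mm10 between 9872296 and 9899551) was at 741, 666 and 649 in VEC-positive libraries, against 1426, 1154 and 694 in VEC-null libraries. VEC-null 3 lay below VEC-positive 1 and above VEC-positive 2 and VEC-positive 3, while VEC-null 1 and VEC-null 2 lay far above. The log2 fold change was -0.61 (95% confidence interval -1.15 to -0.08), and with all 6 libraries the adjusted p was 0.0722. Without VEC-null 3 the log2 fold change was -0.91 and the adjusted p 0.000124, and edgeR and DESeq2 on the recovered reads of all 6 libraries gave adjusted p-values of 0.0445 and 0.00704. Without VEC-null 1 the log2 fold change was -0.39 and the adjusted p 0.193, without any 1 of the other libraries besides VEC-null 3 the adjusted p was 0.127 to 0.189, and limma without the trend gave 0.137.

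Kinetochore genes were lower in 7 of 7 cases, with a median log2 fold change of -1.39 and 5 at least 2-fold lower. *Cenpf*, a large protein of the outer kinetochore, was at 1168, 1150.5 and 1001 in VEC-positive libraries, against 4881, 3707 and 3731 in VEC-null libraries, with a log2 fold change of -1.88 ± 0.122 (adjusted p = 1.86e-05). *Cenpe*, a kinesin motor that brings chromosomes to the spindle equator, was at 771, 899 and 737 in VEC-positive libraries, against 3261, 2533 and 2449.7 in VEC-null libraries, with a log2 fold change of -1.77 ± 0.127 (adjusted p = 3.28e-05). For both genes the VEC-positive libraries held less than the lowest VEC-null library by a wide margin, and VEC-null 1 was the highest. *Cenpa*, the histone variant that marks the centromere, was at 121, 144 and 128 in VEC-positive libraries, against 383, 323 and 328 in VEC-null libraries, with a log2 fold change of -1.39 ± 0.12 (adjusted p = 7.84e-05). *Knl1*, the scaffold to which the Bub proteins bind, was at 532, 520.2 and 508 in VEC-positive libraries, against 1314, 1080.5 and 1164 in VEC-null libraries, with a log2 fold change of -1.18 ± 0.0893 (adjusted p = 4.17e-05).

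The NDC80 complex, the main microtubule binder of the kinetochore, is represented among the members by *Ndc80*, *Nuf2* and *Spc25*. Its subunit gene *Spc24* is not a member. In the list of other kinetochore genes it was lower by less (log2 fold change -0.51, adjusted p = 0.0354 by limma). *Nuf2* was at 344, 342 and 320.4 in VEC-positive libraries, against 1097, 893 and 835 in VEC-null libraries (log2 fold change -1.48, adjusted p = 4.18e-05). *Ndc80*, whose product pairs with Nuf2, was at 357, 364 and 307 in VEC-positive libraries, against 793, 515 and 622 in VEC-null libraries (log2 fold change -0.89, adjusted p = 0.003). *Spc25* was at 529.5, 557 and 472 in VEC-positive libraries, against 982, 731 and 782 in VEC-null libraries (log2 fold change -0.67, adjusted p = 0.00389). These 3 members were lower in every VEC-positive library than in any VEC-null library. The confidence interval of *Nuf2* (-1.74 to -1.22) lay below that of *Spc25* (-0.96 to -0.38), while that of *Ndc80* (-1.25 to -0.53) met both. Differences between members were not tested, here or for other pairs of intervals.

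All 5 checkpoint members were lower, 3 of them at least 2-fold. *Bub1b*, which encodes BubR1, a part of the complex that holds Cdc20, was at 427, 393 and 369 in VEC-positive libraries, against 1128, 1091 and 873 in VEC-null libraries, with a log2 fold change of -1.37 ± 0.115 (adjusted p = 6.92e-05). *Bub1*, the kinase that brings shugoshin and the passenger complex to the centromere, was at 199, 214 and 202 in VEC-positive libraries, against 554, 449.7 and 514 in VEC-null libraries, with a log2 fold change of -1.29 ± 0.105 (adjusted p = 5.83e-05). *Ttk*, the kinase known as Mps1 that starts checkpoint signalling, was at 173, 186 and 149 in VEC-positive libraries, against 341, 366 and 313 in VEC-null libraries, with a log2 fold change of -1.005 ± 0.12 (adjusted p = 0.000407). *Mad2l1*, which encodes the Cdc20 inhibitor Mad2, was at 91.0, 99.4 and 86.3 in VEC-positive libraries, against 161, 153 and 180.0 in VEC-null libraries, with a log2 fold change of -0.83 ± 0.132 (adjusted p = 0.0018). The smallest difference that passed among all members was that of *Bub3* (ENSMUSG00000066979, chromosome 7 between 131560222 and 131571895), at 378, 383 and 366 in VEC-positive libraries, against 542, 471 and 525 in VEC-null libraries, with a log2 fold change of -0.45 ± 0.0871 (adjusted p = 0.00494). Its replicates were tight and the groups did not overlap, and its confidence interval (-0.65 to -0.24) lay above those of *Bub1* (-1.53 to -1.05) and *Bub1b* (-1.64 to -1.10).

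Of the partners of the APC/C, *Cdc20*, its activator in mitosis and the target of the checkpoint, was at 111, 104 and 113 in VEC-positive libraries, against 353, 269 and 292 in VEC-null libraries, with a log2 fold change of -1.46 ± 0.131 (adjusted p = 9.34e-05). *Ube2c*, the ubiquitin-conjugating enzyme that starts chains for the APC/C, was at 33.8, 75.0 and 46.8 in VEC-positive libraries, against 122, 102 and 79.8 in VEC-null libraries. The VEC-positive libraries were more than 2-fold apart from one another, and the highest of them was just below VEC-null 3. The log2 fold change was -1.005 ± 0.301 (adjusted p = 0.0316). The call was lost when any 1 of VEC-positive 1, VEC-positive 3, VEC-null 1 or VEC-null 2 was left out (adjusted p between 0.0864 and 0.101), and kept without VEC-positive 2 or VEC-null 3. Of the exon bases of *Ube2c*, 22.8% are shared with *Tnnc2* on the opposite strand, which averaged 0.403 normalized counts.

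All 5 members of spindle assembly and cytokinesis were lower, within a narrow range of log2 fold changes between -1.20 and -0.996. *Tpx2*, which activates Aurka on the spindle, was at 766, 827 and 750.5 in VEC-positive libraries, against 2076, 1595 and 1519 in VEC-null libraries, with a log2 fold change of -1.13 ± 0.121 (adjusted p = 0.00023). *Nusap1*, which bundles microtubules near chromosomes, was at 387, 346 and 348 in VEC-positive libraries, against 842, 891 and 751 in VEC-null libraries. *Prc1*, the crosslinker of the central spindle, was at 1082, 1029.7 and 951 in VEC-positive libraries, against 2330.3, 1906 and 2033 in VEC-null libraries. These groups were well apart, with log2 fold changes of -1.20 and -1.03 (adjusted p = 5.31e-05 and 0.000107). *Anln*, the scaffold of the contractile ring, was at 577, 569 and 523 in VEC-positive libraries, against 1294, 1089 and 1119.8 in VEC-null libraries, and *Hmmr*, a spindle protein that is also a receptor for hyaluronan, at 732, 658 and 612 in VEC-positive libraries, against 1339, 1226 and 1427 in VEC-null libraries. Their log2 fold changes were -1.06 and -0.996 (adjusted p = 7.46e-05 and 0.000128).

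Members of condensin I and of the mitotic chromosome were lower in 7 of 7 cases. Condensin I is a ring of Smc2 and Smc4 closed by the kleisin Ncaph and carrying Ncapd2 and Ncapg. *Smc2* was at 1657, 1578 and 1491 in VEC-positive libraries, against 3323, 2874 and 2803 in VEC-null libraries, and *Smc4* at 3091, 3076 and 2731 in VEC-positive libraries, against 6004, 5075 and 5907 in VEC-null libraries, and these partners had nearly the same log2 fold change (-0.93 and -0.93, adjusted p = 0.000123 and 0.000163). *Ncapd2* was at 628, 618 and 619.7 in VEC-positive libraries, against 1604, 1402 and 1404 in VEC-null libraries, with a log2 fold change of -1.24 ± 0.0791 (adjusted p = 1.72e-05). It had the smallest adjusted p of the members and the VEC-positive libraries agreed closely. *Ncapg* was at 359, 369 and 324 in VEC-positive libraries, against 823, 709.5 and 811 in VEC-null libraries (log2 fold change -1.15, adjusted p = 6.41e-05), and *Ncaph* at 425, 385 and 422 in VEC-positive libraries, against 767, 662 and 584 in VEC-null libraries (log2 fold change -0.70, adjusted p = 0.00183). The interval of *Ncaph* (-0.96 to -0.44) lay above that of *Ncapd2* (-1.42 to -1.05) and met those of the other subunits in part. *Top2a*, the topoisomerase that untangles sister chromatids, was at 2456, 2563 and 2393 in VEC-positive libraries, against 6659, 5346 and 5363 in VEC-null libraries, with a log2 fold change of -1.22 ± 0.0994 (adjusted p = 6.00e-05). *Mki67*, whose product Ki-67 coats mitotic chromosomes and is the usual stain for dividing cells, was the most abundant member at 6116, 6117 and 5551 in VEC-positive libraries, against 15722, 11652 and 10831 in VEC-null libraries, with a log2 fold change of -1.08 ± 0.14 (adjusted p = 0.000602).

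Of the 3 genes that hold and release sister chromatids 2 were lower. *Sgo1*, the shugoshin that protects centromeric cohesin, was at 112, 146 and 129 in VEC-positive libraries, against 301, 295 and 343 in VEC-null libraries, with a log2 fold change of -1.28 ± 0.132 (adjusted p = 0.000191). *Pttg1*, which encodes securin, the inhibitor of separase, was at 120.1, 76.0 and 141 in VEC-positive libraries, against 476, 349.7 and 138 in VEC-null libraries. VEC-null 3 held less than VEC-positive 3 and 33.5% of the mean of its own 2 replicates, so the groups overlapped. The log2 fold change was -1.38 ± 0.434 (adjusted p = 0.0379). Its confidence interval (-2.38 to -0.38) was wide, and leaving out any 1 library other than VEC-null 3 lost the call (adjusted p between 0.0584 and 0.131), while without VEC-null 3 the log2 fold change was -1.90 and the adjusted p 0.000288. *Espl1* (ENSMUSG00000058290, chromosome 15 between 102296266 and 102324357), which encodes separase, was at 195, 159.8 and 155 in VEC-positive libraries, against 274, 192 and 169 in VEC-null libraries. VEC-positive 1 lay above both VEC-null 2 and VEC-null 3, and the log2 fold change of -0.29 did not pass (95% confidence interval -0.73 to 0.14, adjusted p = 0.264). Without VEC-null 1 it was -0.09, and with libraries scaled to equal totals it was -0.60 with an adjusted p of 0.0367.

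**Figure D4:**
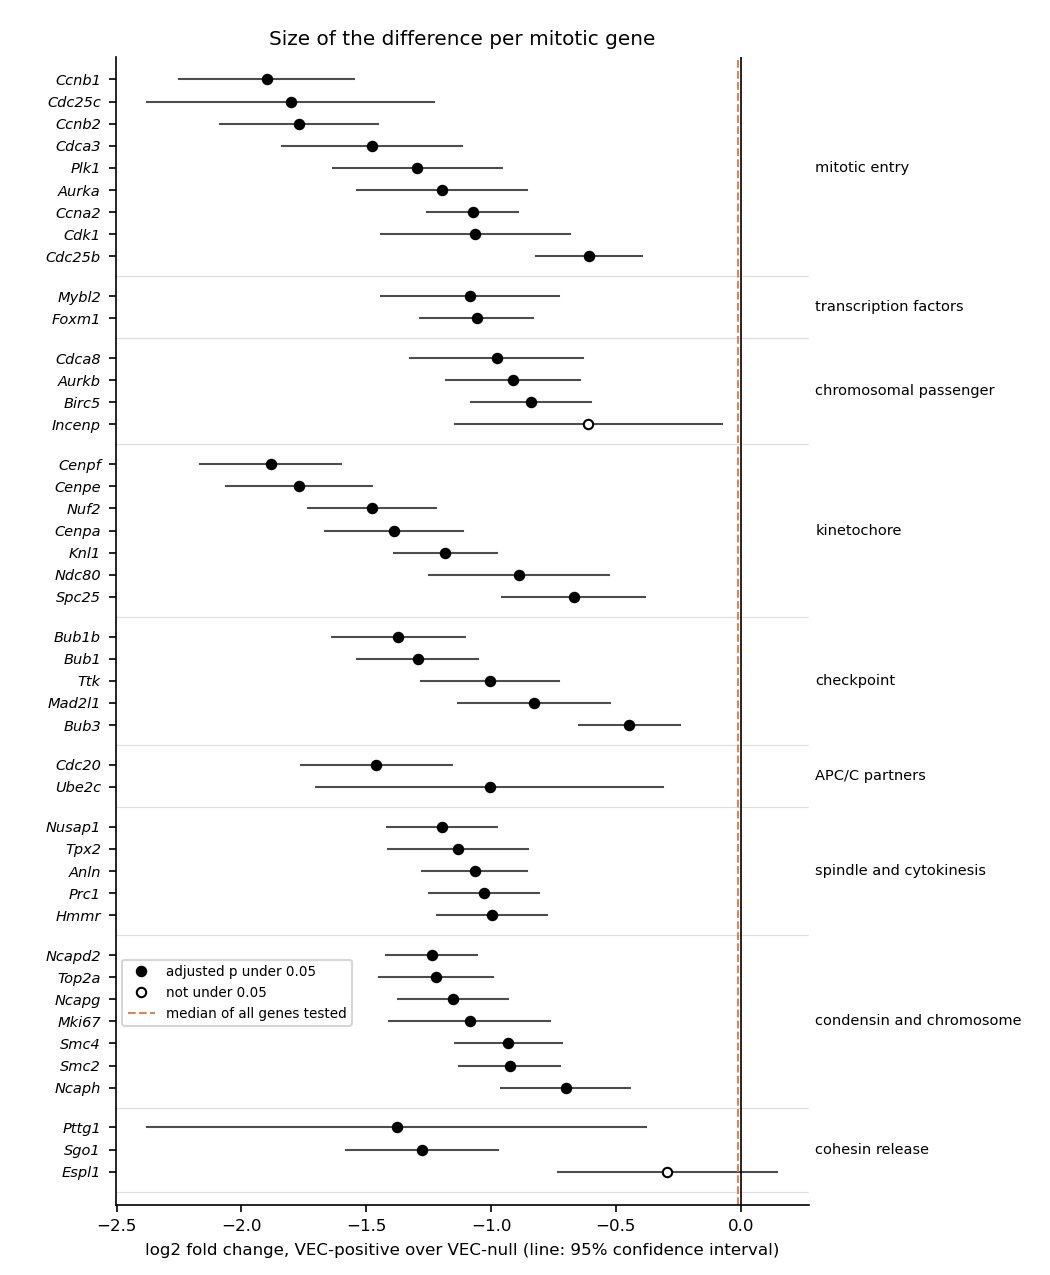
Log2 fold change (VEC-positive over VEC-null, by label) of each of the 44 members with its 95% confidence interval, by function, with filled points for an adjusted p under 0.05 and a dashed line at the median of all genes tested (-0.012). The 42 filled points lie between -1.90 and -0.45, and the 2 open points are *Incenp* and *Espl1*.

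Seen by library, VEC-null 3 was low for several of the exceptions. It was at 33.5% of the mean of VEC-null 1 and VEC-null 2 for *Pttg1*, 53.8% for *Incenp* and 72.7% for *Espl1*, the 3 members with overlapping groups, and also at 67.9% for *Cdk1*, 71.2% for *Ube2c*, 71.5% for *Plk1* and 74.9% for *Mybl2*. For the other 37 members it was above 75% of that mean. For *Espl1* the library farthest from its replicates was the high VEC-null 1, and VEC-null 3 lay near VEC-null 2. With VEC-null 3 left out 43 members were lower, all but *Espl1* (adjusted p = 0.0577). Of the 14032 genes tested, 3359 were then called lower, against 2304 with every library kept. Over the 17 alternative settings tried, 40 members were called lower in every one, and the remaining 4 were *Incenp*, called in 6, *Ube2c* in 11, *Pttg1* in 10 and *Espl1* in 1.

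The genes around the members were described through 11 further lists of cell cycle genes. Directions again follow the labels, against which *Cdh5* ran, and each list is given by its counts and median beside the 16.4% called lower, the 20.9% called higher and the median of -0.012 over all genes. In the lists given here with 0 genes higher, edgeR and DESeq2 also called 0 higher, and at an unadjusted p under 0.05 only the APC/C list held 1 higher. Other kinetochore genes were lower in 24 of 29 cases and higher in 0, with a median log2 fold change of -1.02. *Ska1*, of the complex that follows depolymerising microtubules, averaged 70.3 ± 15.02 normalized counts under the VEC-positive label and 219 ± 7.503 under the VEC-null label (SD, n = 3 each, log2 fold change -1.65, adjusted p = 0.000234 by limma). *Hjurp*, the chaperone that loads Cenpa, averaged 239.8 ± 18.3 in VEC-positive and 671 ± 146 in VEC-null libraries (log2 fold change -1.46, adjusted p = 0.000192), and *Cenpn*, which recognises Cenpa nucleosomes, 42.3 ± 8.85 in VEC-positive and 117 ± 17.0 in VEC-null libraries (log2 fold change -1.45, adjusted p = 0.00101). Among the 5 that did not pass, *Mis12*, of the complex that links the NDC80 complex to chromatin, averaged 854 ± 20.5 in VEC-positive and 863 ± 49.9 in VEC-null libraries, and *Cenpb*, a protein that binds centromeric satellite DNA, 2034 ± 139 in VEC-positive and 1732 ± 241 in VEC-null libraries. Other checkpoint genes were lower in 6 of 9 tested cases and higher in 0 (median -0.95), among them *Trip13*, which remodels Mad2 (log2 fold change -1.29, adjusted p = 0.00332), *Kntc1*, of the complex that brings dynein to kinetochores (log2 fold change -1.18, adjusted p = 0.000308), and *Spdl1*, the dynein adaptor (log2 fold change -1.18, adjusted p = 0.00105). *Mad1l1* (log2 fold change -0.25) and *Zw10* (log2 fold change -0.23) did not pass, and *Tex14* was below the filter.

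Other spindle and cytokinesis genes were lower in 26 of 27 cases (median -1.22, 0 higher). *Aspm*, a spindle pole protein, averaged 547 ± 25.6 under the VEC-positive label and 2264 ± 272 under the VEC-null label (log2 fold change -2.04, adjusted p = 3.92e-06), *Kif2c*, a kinesin that depolymerises microtubules, 150.4 ± 12.4 in VEC-positive and 529 ± 54.0 in VEC-null libraries (log2 fold change -1.80, adjusted p = 1.63e-05), and *Stmn1*, which binds free tubulin, 361 ± 22.8 in VEC-positive and 1193 ± 163 in VEC-null libraries (log2 fold change -1.71, adjusted p = 2.22e-05). *Numa1*, which anchors microtubules at spindle poles, was the 1 gene of this list that did not pass (log2 fold change -0.14, adjusted p = 0.192). Regulators of entry were mixed, with 9 of 15 lower and 2 higher (median -0.61). *Lmnb1*, lamin B1 of the nuclear envelope, averaged 1351 ± 97.5 in VEC-positive and 4524 ± 529.8 in VEC-null libraries (log2 fold change -1.74, adjusted p = 1.11e-05), and the centrosomal kinase gene *Nek2* and the cyclin F gene *Ccnf* were lower as well (log2 fold changes -1.39 and -1.22, adjusted p = 0.000159 and 0.000794). *Ensa*, an inhibitor of the phosphatase that opposes Cdk1, was higher at 815 ± 13.7 in VEC-positive and 519 ± 61.3 in VEC-null libraries (log2 fold change 0.66, adjusted p = 0.00122), as was *Cdk7*, the kinase that activates CDKs (log2 fold change 0.48, adjusted p = 0.0175). Under equal totals *Ensa* was still higher (log2 fold change 0.35, adjusted p = 0.0227) and *Cdk7* did not pass (log2 fold change 0.17, adjusted p = 0.258). *Arpp19* (log2 fold change 0.19) and *Ccnh* (log2 fold change -0.21) did not pass.

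Beside the partners Cdc20 and Ube2c, the subunits and other regulators of the APC/C were lower in 6 of 16 cases and did not pass in 10 (median -0.19, 0 higher). The largest difference was that of *Fbxo5*, which encodes the APC/C inhibitor Emi1, at 104 ± 4.45 under the VEC-positive label and 302 ± 40.5 under the VEC-null label (log2 fold change -1.52, adjusted p = 7.17e-05). The subunit gene *Anapc5* (log2 fold change -0.59, adjusted p = 0.00133) and the chain-extending enzyme gene *Ube2s* (log2 fold change -0.54, adjusted p = 0.00403) were lower by less, and the subunit genes *Anapc1* (log2 fold change -0.09) and *Cdc27* (log2 fold change -0.19) did not pass. The list of core cohesin and its loaders and regulators held 3 genes lower, 4 higher and 7 not past of 14 (median 0.10). In edgeR and in DESeq2 3 genes of this list were lower and 3 higher. Those lower were *Sgo2a*, the second shugoshin (log2 fold change -1.52, adjusted p = 2.57e-05), *Cdca5*, which encodes the cohesin protector sororin (log2 fold change -0.69, adjusted p = 0.0121), and *Esco2*, which acetylates cohesin in S phase (log2 fold change -0.33, adjusted p = 0.0251). *Wapl*, which takes cohesin off chromatin (log2 fold change 0.48, adjusted p = 0.00254), the ring subunit gene *Smc3* (log2 fold change 0.42, adjusted p = 0.0154) and the loader gene *Nipbl* (log2 fold change 0.34, adjusted p = 0.00891) were higher, and with libraries scaled to equal totals their log2 fold changes were 0.167, 0.105 and 0.031 and did not pass (adjusted p = 0.128, 0.412 and 0.755). The cohesin subunit genes *Stag2* (log2 fold change 0.14) and *Rad21* (log2 fold change 0.26) did not pass. Condensin II, which shares Smc2 and Smc4 with condensin I, has 3 subunits of its own. Of these *Ncapg2* was lower, at 661 ± 32.1 in VEC-positive and 1049 ± 112 in VEC-null libraries (log2 fold change -0.66, adjusted p = 0.00105). *Ncaph2* averaged 687 ± 30.5 in VEC-positive and 656 ± 35.1 in VEC-null libraries and *Ncapd3* 667 ± 50.2 in VEC-positive and 670.0 ± 24.1 in VEC-null libraries, and neither passed (log2 fold changes 0.07 and -0.01, adjusted p = 0.543 and 0.94). With libraries scaled to equal totals both were lower (log2 fold changes -0.244 and -0.32, adjusted p = 0.0362 and 0.0204).

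Components of MuvB, DREAM and the E2F family were lower in 6 of 17 cases, higher in 1 and not past in 10 (median -0.21). The repressor gene *E2f8* (log2 fold change -0.96, adjusted p = 0.000355), the pocket protein gene *Rbl1* (log2 fold change -0.82, adjusted p = 0.00105) and the MuvB subunit gene *Lin9* (log2 fold change -0.62, adjusted p = 0.0048) were lower, and the retinoblastoma gene *Rb1* was higher (log2 fold change 0.38, adjusted p = 0.0314). *Rb1* did not pass with DESeq2 (adjusted p = 0.0537) or under equal totals (log2 fold change 0.07, adjusted p = 0.602). *Rbbp4* (log2 fold change -0.21) and *Tfdp1* (log2 fold change -0.25) did not pass with limma (adjusted p = 0.0516 and 0.0663). With edgeR both were lower (adjusted p = 0.0341 and 0.0454). DESeq2 called *Rbbp4* lower (adjusted p = 0.0395) but not *Tfdp1* (adjusted p = 0.0565). Under equal totals both were lower (log2 fold changes -0.519 and -0.56, adjusted p = 0.000513 and 0.00119). Of this list edgeR called 9 genes lower and 1 higher, and DESeq2 7 lower and 0 higher. DNA replication genes were lower in 27 of 33 cases and higher in 0, with a median of -0.65 that lay between that of the members and that of all genes. *Pola1*, the catalytic subunit of polymerase alpha (log2 fold change -1.50, adjusted p = 1.63e-05), the helicase gene *Mcm6* (log2 fold change -1.41, adjusted p = 5.25e-05) and *Rrm2*, of ribonucleotide reductase (log2 fold change -1.16, adjusted p = 0.000438), were lower, and *Cdc45* (log2 fold change 0.05) and *Fen1* (log2 fold change -0.23) did not pass.

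Among genes of the G1 phase more were higher than lower. Of 8 tested G1 cyclins and kinases 4 were higher and 1 lower, with a median of 0.39. *Ccnd2* averaged 4438 ± 70.7 under the VEC-positive label and 1318 ± 73.5 under the VEC-null label (log2 fold change 1.75, adjusted p = 1.61e-06), *Ccnd1* 1260.5 ± 39.8 in VEC-positive and 492 ± 42.6 in VEC-null libraries (log2 fold change 1.36, adjusted p = 1.56e-05), and their partner kinase gene *Cdk6* 982 ± 27.8 in VEC-positive and 484 ± 70.0 in VEC-null libraries (log2 fold change 1.03, adjusted p = 0.000214). *Cdk4* was lower (log2 fold change -0.37, adjusted p = 0.0267), and *Ccne2* (log2 fold change 0.11) and *Cdk2* (log2 fold change 0.12) did not pass. Of 8 genes named as CDK inhibitors 4 were lower and 2 higher (median -0.46). *Cdkn1a*, which encodes a broad inhibitor of CDKs, was at 239, 197 and 196 under the VEC-positive label and 68.9, 73.2 and 58.5 under the VEC-null label (log2 fold change 1.64, adjusted p = 0.000104). Its groups were far apart, and it was higher in each library labelled VEC-positive. *Cdkn1b* was higher by less (log2 fold change 0.54, adjusted p = 0.000934), and with equal totals its log2 fold change was 0.23 (adjusted p = 0.0314). *Cdkn3*, in spite of its name a phosphatase that acts on CDKs, was lower (24.9 ± 6.54 in VEC-positive and 106 ± 20.2 in VEC-null libraries, log2 fold change -2.06, adjusted p = 0.000427), as were *Cdkn1c* (log2 fold change -1.64, adjusted p = 0.00215) and *Cdkn2a* (log2 fold change -0.79, adjusted p = 0.00223). *Cdkn2d* (log2 fold change 0.35) and *Cdkn2b* (log2 fold change -0.39) did not pass.

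**Figure D5:**
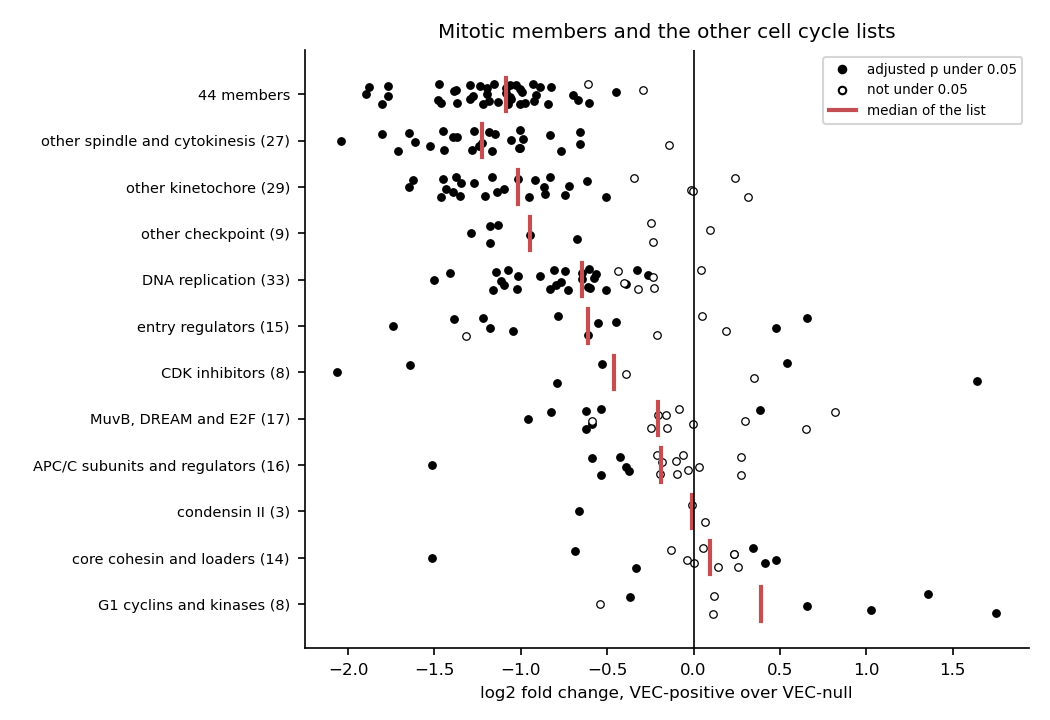
Log2 fold change (VEC-positive over VEC-null, by label) of every tested gene of the 44 members and of 11 other cell cycle lists, with the number of tested genes in brackets, filled points for an adjusted p under 0.05 and a red bar at each median. Medians are -1.09 for the members, -1.22 and -1.02 for other spindle and kinetochore genes, -0.65 for DNA replication, -0.19 for the APC/C and 0.39 for G1 cyclins and kinases.

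The kit marks strand, but whether the reads were counted by strand is not stated in the sources used here, so reads from overlapping genes on opposite strands may be shared. Besides *Cdc25c* and *Ube2c*, such overlaps cover 13.4% of the exon bases of *Ncapg* (with *Lcorl*, which averaged 606.5 normalized counts over the 6 libraries), 12.5% of *Ccna2* (with *Exosc9*, 268.7), 11.1% of *Prc1* (with *Rccd1*, 24.9), 7.1% of *Plk1* (with *Gm44985*), 4.5% of *Cdca8* and 4.2% of *Nusap1* (with *Oip5*).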

How the data were processed

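The 6 libraries were grouped by their genotype labels into 3 VEC-positive and 3 VEC-null. Per the submitters' processing notes, reads were trimmed with Trim Galore and aligned to mm10 with TopHat2 2.1.1, and DESeq2 1.14 was used. The sources used here do not give what counted the reads or on which gene models. The signal values deposited by the authors are gene counts scaled by a size factor for each library, so each value is a whole multiple of what 1 read is worth. Whole reads came out for 100% of values within 0.01 of a read. No column of another series was present. Depth was 6036155 to 14136376 reads, with a median of 11128657. The member with the fewest counts, *Cdc25c*, averaged 56.3 normalized counts, and low counts limit precision. The standard error of its log2 fold change was 0.249. Those of *Ube2c* and *Pttg1*, whose replicates were more spread, were larger at 0.301 and 0.434.

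Symbols of 23908 genes and exon lengths came from GENCODE M21. Log2 values with a pseudocount of 1 were compared for 14032 genes (normalized count of 10 reached in 3 libraries) by limma 3.58.1 in R 4.3.3, with a mean-variance trend, two-sided tests, Benjamini-Hochberg adjusted p-values and a threshold of 0.05. Fold changes on this scale understate those of low genes. edgeR 4.0.16, DESeq2 1.42.0, other pseudocounts, filters and scalings, limma without a trend, the replicate number as a block and leaving out each library were alternatives. The script was tested on simulated data. Motifs were matched in RefSeq promoters. Figures were drawn with matplotlib 3.10.9.

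The 44 members and the 11 lists were chosen with earlier results of these data known. All members were named. Of each list, up to 3 genes past the threshold each way with the largest change and a mean of 50 or more were named. Up to 2 not past with the highest mean were named too. *Spc24* was named besides these, as a subunit gene of the NDC80 complex. *Cdk3* of the lists was not analysed here. The blots, chromatin and polymerase chain reaction experiments of the study were not analysed here.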

Additional observations from a re-analysis of the deposited data

How the results depend on the processing

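Over 17 alternative settings, 40 to 44 members were lower and 0 higher. The count was 40 to 43 when 1 library was left out, and the members' median log2 fold change was then -1.19 to -1.0. Scaling to equal totals moved that median to -1.40 and called 4960 genes lower and 1566 higher over all genes, so 76% of called genes were lower against 44% as deposited. Of the pathway genes named outside the members, 13 of the 21 that did not pass as deposited were then lower and 6 of the 11 that were higher stayed so. With equal totals outside the mitochondrial genome that share was 60.7%, the members' median -1.23 and the median of all genes -0.156. Leaving out 1 library called 1585 to 3359 genes lower and 2111 to 3800 higher, the highest counts being without VEC-null 3. Same-numbered libraries of the groups did not visibly deviate together over all genes (correlations of 0.076, -0.333 and -0.295). With 3 libraries per group these values cannot decide whether the numbers pair the libraries. With the replicate number as a block 41 members and 1744 of all genes were lower, and 2400 genes were higher. Under the block the adjusted p was 0.0478 for *Incenp*, 0.0581 for *Ube2c* and 0.0645 for *Pttg1*. Without the trend it was 0.0562 for *Ube2c* and 0.0822 for *Pttg1*. With the promoter window drawn out to 50 bases after the start, an alternative chosen after seeing the data, the share of members with a homology region match was 75.7%, against 22.4% of tested genes. The causes were not tested.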
